A study of Mus musculus with 12 samples.

Results

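The comparison set the peaks called after 72 h without estradiol (E2) followed by 48 h with it against the peaks called after 120 h without E2. Both peak lists came from ATAC-seq, which marks open chromatin by where the Tn5 transposase inserts. A region of the 72 h list that shared no base with a 120 h peak was called 72h-only, a region of the 120 h list that shared no base with a 72 h peak was called 120h-only, and the rest were called shared. The 2 lists gave 10463 regions, of which 2477 were 72h-only, 889 were 120h-only and 7097 were shared, out of 16028 regions in the union of all 6 lists of the series.

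The cells were a C57BL/6 mouse line, ER-Hoxa9-Lys-GFP, grown in medium with stem cell factor. All groups carried the ER-Hoxa9 fusion and the lysozyme GFP reporter, and they differed in E2 alone. Besides the 72 h and 120 h groups, 1 group stayed in E2 and 3 groups went 24, 40 or 56 h without E2, with 96, 80 or 64 h of add-back after it. Each group had 2 libraries and 1 peak list for both, so no list had a replicate, and nothing in the labels says that the libraries came from separate cultures. Withdrawal and add-back add up to 120 h in each of these groups, so by the labels the 2 groups compared here were treated alike for 72 h and differed in whether E2 came back for the last 48 h. In the other groups a longer withdrawal goes with a shorter add-back, and the 2 durations cannot be told apart.

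Hoxa9 is a homeobox transcription factor that keeps myeloid progenitors immature and dividing. In the fusion it is tied to the hormone-binding part of the estrogen receptor, so it is active while E2 is present, and removing E2 lets the cells mature along the granulocyte and monocyte path. Genes of progenitors, such as Kit and Myb, are normally shut down on that path, while genes for granule proteins, calgranulins and the oxidative burst are turned on.

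The promoters of a small set of 120h-only regions were poor in CpG dinucleotides, while the 120h-only class as a whole was not. First shown are the 250 bases before a RefSeq start of 3 genes whose start lay in a 120h-only region called in no other list. Then follow those of 3 genes whose start lay in a 72h-only region called in every list except that at 120 h. They are RefSeq sequences on GRCm38.p6, written along the gene's strand, with each CpG dinucleotide in capitals, and were chosen as far examples of this contrast after the values were seen. The 2 sets of examples differ in presence in the other lists as well as in class. S100a8 and S100a9 encode the calgranulins of neutrophils, and Slc11a1 a metal transporter of phagosomes. Myb is a transcription factor of progenitors, E2f1 drives entry into S phase, and Mki67 encodes a marker of dividing cells.
S100a8 (chr3:90668821-90669070, plus strand): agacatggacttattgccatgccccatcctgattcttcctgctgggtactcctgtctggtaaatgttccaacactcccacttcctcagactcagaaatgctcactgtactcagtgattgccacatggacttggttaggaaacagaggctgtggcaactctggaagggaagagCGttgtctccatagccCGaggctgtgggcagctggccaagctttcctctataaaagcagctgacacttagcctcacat
S100a9 (chr3:90695722-90695971, minus strand): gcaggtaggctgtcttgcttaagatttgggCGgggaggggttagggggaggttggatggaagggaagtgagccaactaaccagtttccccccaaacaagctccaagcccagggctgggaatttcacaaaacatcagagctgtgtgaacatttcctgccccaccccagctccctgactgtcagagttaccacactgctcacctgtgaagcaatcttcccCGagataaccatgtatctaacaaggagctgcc
Slc11a1 (chr1:74374953-74375202, plus strand): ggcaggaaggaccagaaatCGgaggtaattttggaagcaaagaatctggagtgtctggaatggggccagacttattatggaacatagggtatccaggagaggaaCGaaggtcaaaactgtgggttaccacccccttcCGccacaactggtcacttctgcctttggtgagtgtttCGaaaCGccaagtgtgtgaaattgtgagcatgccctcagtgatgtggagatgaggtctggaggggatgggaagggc
Myb (chr10:21160985-21161234, minus strand): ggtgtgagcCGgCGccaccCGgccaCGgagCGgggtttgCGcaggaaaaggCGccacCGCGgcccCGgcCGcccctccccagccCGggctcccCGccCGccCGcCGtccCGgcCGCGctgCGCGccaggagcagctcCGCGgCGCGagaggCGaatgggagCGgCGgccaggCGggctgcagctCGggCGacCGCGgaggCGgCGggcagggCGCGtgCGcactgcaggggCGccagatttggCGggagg
E2f1 (chr2:154569427-154569676, minus strand): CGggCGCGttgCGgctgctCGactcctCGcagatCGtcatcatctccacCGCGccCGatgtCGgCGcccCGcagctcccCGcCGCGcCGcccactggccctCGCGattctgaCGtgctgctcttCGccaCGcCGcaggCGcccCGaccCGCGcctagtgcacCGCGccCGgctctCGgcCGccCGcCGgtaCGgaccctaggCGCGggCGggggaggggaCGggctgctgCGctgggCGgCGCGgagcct
Mki67 (chr7:135716380-135716629, minus strand): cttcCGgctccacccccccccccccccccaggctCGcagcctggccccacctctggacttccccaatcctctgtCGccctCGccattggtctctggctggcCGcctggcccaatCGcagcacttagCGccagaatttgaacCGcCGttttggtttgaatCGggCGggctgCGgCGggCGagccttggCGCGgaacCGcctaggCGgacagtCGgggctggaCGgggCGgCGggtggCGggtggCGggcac
The stretches hold 2 CpG for S100a8, 2 for S100a9 and 5 for Slc11a1, against 40 for Myb, 43 for E2f1 and 24 for Mki67. The RefSeq start used for E2f1 lies inside the gene. The stretch before it reads largely as protein-coding sequence, so its 43 CpG are not those of an upstream promoter. Not all members follow this: the like stretch of Egr2, whose 120h-only region was in no other list, holds 16, and those of Sox4 and Gstm1, whose 72h-only regions were in every list except that at 120 h, hold 11 and 13.

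The 72 h list was longer than the 120 h list and held most of it. After cleaning, it had 9581 peaks over 5.88 Mb and the 120 h list 7987 peaks over 4.83 Mb. Of the 72 h peaks, 25.9% had no partner at 120 h (95% Wilson interval 25 to 26.7). Of the 120 h peaks, 11.1% had no partner at 72 h (10.5 to 11.8), a difference of 14.7 percentage points (Newcombe interval 13.6 to 15.8). There were 2.79 72h-only regions for each 120h-only region. Over all 10463 regions, 23.7% were 72h-only and 8.50% were 120h-only. When both lists were cut to their 7987 widest peaks, 21.5% lacked a partner on each side, which equal lengths bring about by construction. The number of reads behind each list was unknown and the peaks carried no score, so the intervals cover counting error over regions and nothing between samples.

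Partners overlapped broadly, so the classes did not rest on marginal contacts. The smallest overlap was 114 bases and the median overlap covered 100% of the narrower peak. The 72h-only regions lay at least 260 bases from the nearest 120 h peak, with a median of 44575 bases, and the 120h-only regions at least 486 bases from the nearest 72 h peak. Of the shared regions, 7089 of 7097 joined 1 peak of each list. Of these, 61.4% were narrower at 120 h (60.3 to 62.6), and the median difference over all 7089 (120 h minus 72 h) was -19 bases (order-statistic interval -22 to -17) on a median width of 619 bases at 72 h and 596 at 120 h.

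Unmatched regions were narrower than shared ones. The median width was 498 bases for 72h-only regions (485 to 509) and 422 for 120h-only regions (401 to 440). The 120h-only regions found in no other list were narrower again, with a median of 342 bases, against 530 for those also called before 72 h, and the 72h-only regions likewise had medians of 334 and 510. With each list split into 4 equal groups by width, 43.8% of peaks in the narrowest group of the 72 h list had no partner (41.8 to 45.8), against 18.2% in the widest (16.7 to 19.8). In the 120 h list the shares were 24.2% and 7.30%. The share without a partner was higher at 72 h than at 120 h in each of the 4 groups.

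**Figure D1:**
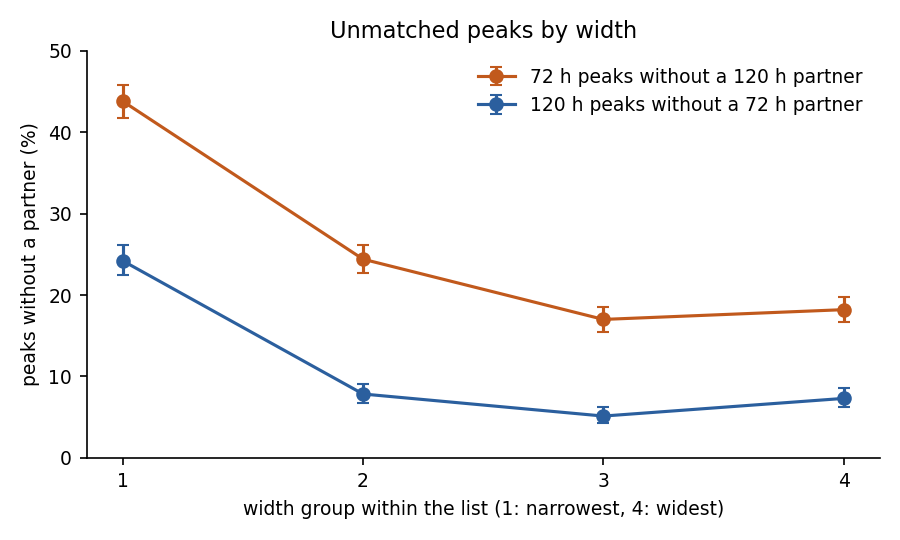
Percent of peaks without a partner in the other list (vertical axis), by peak width in 4 equal groups of each list (horizontal axis, 1 narrowest to 4 widest), for the 72 h list and the 120 h list. Points are shares and bars 95% Wilson intervals: both lines are highest in the narrowest group, at 43.8% and 24.2%.

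The 72h-only regions lay more often at gene boundaries, mostly starts, than the 120h-only regions. Within 1000 bases of the start or end of a protein-coding gene lay 53.4% of 72h-only regions (51.4 to 55.4), 27.6% of 120h-only regions (24.7 to 30.6) and 72.3% of shared regions (71.2 to 73.3). The 72h-only share was 25.9 points above the 120h-only share (22.2 to 29.3) and 18.9 points below the shared one (16.6 to 21.1). Where the strand was known, 97.2% of such 72h-only regions and 93.2% of such 120h-only regions were at the start of the gene. Inside genes lay 25.8% of 72h-only and 36.2% of 120h-only regions, and 6.06% and 10.6% were more than 50000 bases from any protein-coding gene. Among members no narrower than the median of their own list, the 2 boundary shares were 66.2% and 56.4%, so width moved with this difference, and its part in it was not tested.

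The 120h-only regions were made up of 2 sets that differed in position. In none of the other 4 lists were 458 of the 889 called, and of these 9.61% were at a gene boundary (7.23 to 12.7). The other 431 were also called in continuous E2 or after a shorter withdrawal, and 46.6% of them were at a boundary (42.0 to 51.4), 37.0 points more (31.5 to 42.3). Among 72h-only regions 207 were in no other list and 22.7% of these were at a boundary, against 56.2% of the remaining 2270.

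**Figure D2:**
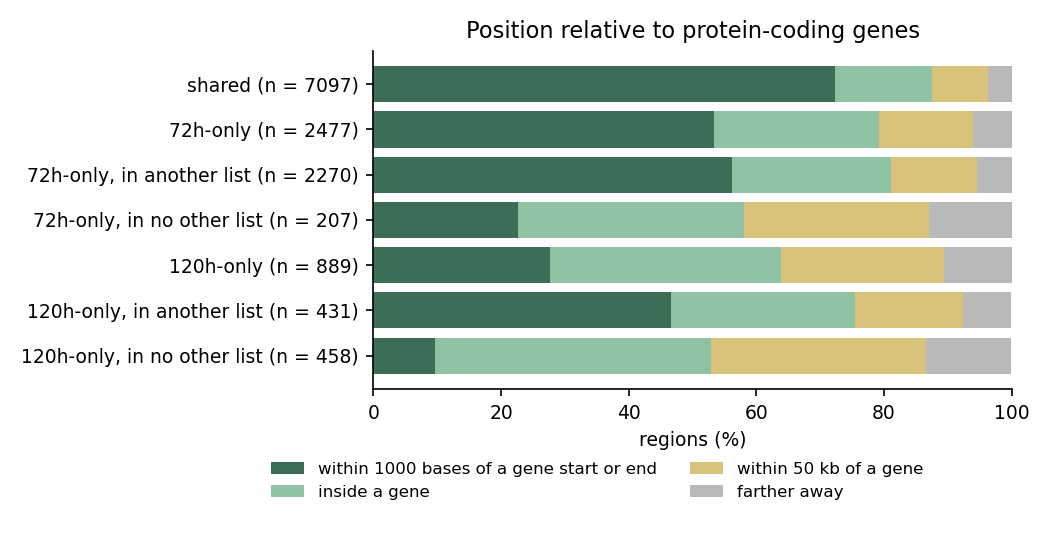
Percent of regions (horizontal axis) by position relative to protein-coding genes, for the shared, 72h-only and 120h-only classes, with the 2 unmatched classes also split by whether any of the other 4 lists called the region. The boundary share is 72.3% in the shared class and 9.61% among 120h-only regions in no other list.

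Most 72h-only regions were also called in continuous E2. Continuous E2 had a peak at 73.0% of them (71.2 to 74.7), against 40.7% of 120h-only regions (37.5 to 44.0) and 86.7% of shared ones. The difference between the 2 unmatched classes was 32.3 points (28.6 to 35.9). In the lists at 24, 40 and 56 h, the 72h-only regions were called in 72.5%, 70.0% and 67.5%, and the 120h-only regions in 33.3%, 26.1% and 23.6%. The shared regions were called in 87.4%, 89.4% and 90.7%. The lists shorten along the same order, from 13165 peaks in continuous E2 to 8989 at 56 h, and the part of list length in these shares was not tested. All 4 other lists called 1066 of the 72h-only regions (43.0%, 41.1 to 45.0) and 109 of the 120h-only regions (12.3%, 10.3 to 14.6). None of them called 8.36% and 51.5%. Among members no narrower than their list's median, continuous E2 had a peak at 80.5% of 72h-only and 64.0% of 120h-only regions.

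**Figure D3:**
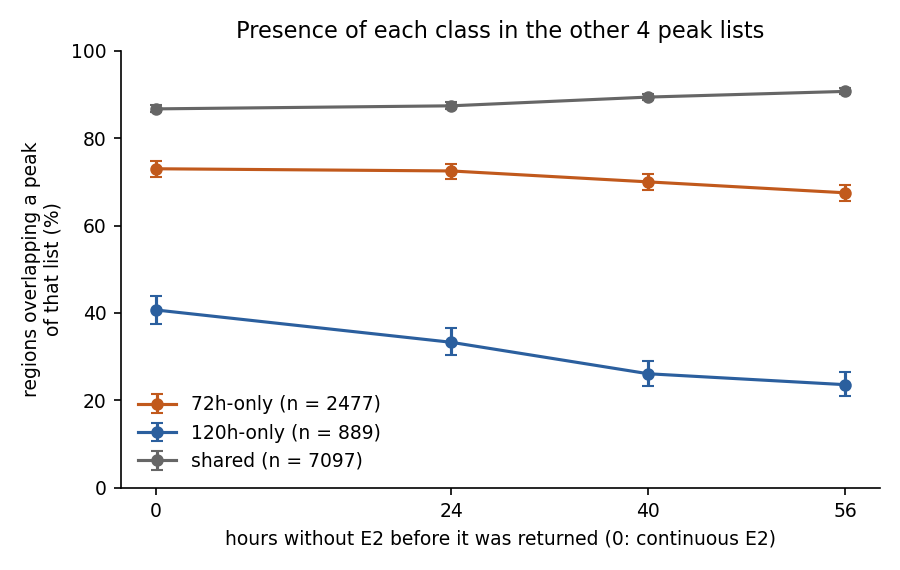
Percent of regions of each class that overlapped a peak (vertical axis) in continuous E2 and in the lists at 24, 40 and 56 h of withdrawal with add-back (horizontal axis, hours without E2). Points are shares and bars 95% Wilson intervals; the 72h-only line runs from 73.0% to 67.5% and the 120h-only line from 40.7% to 23.6%.

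Each region was given to the protein-coding gene it overlapped or, failing that, to the nearest one within 50000 bases. This placed 9955 regions at 8429 genes, of which 2168 (25.7%) had a 72h-only region and 748 (8.87%) a 120h-only region. Both kinds were at 117 genes. Every assigned region was 72h-only at 1644 genes and 120h-only at 404. The gene lists used below describe the members and were chosen with earlier results of these data known. A peak in bulk cells cannot tell more open chromatin per cell from more cells that are open.

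Progenitor and Hoxa9-associated genes were mostly on the 72 h side. Of 32 listed genes, 21 had a region and 16 of those had a 72h-only one (76.2%, against 25.7% of all genes). Their 35 regions were 19 72h-only, 5 120h-only and 11 shared, so 54.3% were 72h-only against 23.7% of all regions. Continuous E2 had a peak at 13 of the 19, and all 4 other lists at 8.

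Kit, the receptor for stem cell factor, had a peak over its start (chr5:75574864-75575873) that was 1632, 1193, 1191, 1187 and 1010 bases wide at 0, 24, 40, 56 and 72 h and was not called at 120 h. The peak over the start of Myb (chr10:21160675-21161405) was 964, 1041, 1005, 859 and 731 bases wide in the same lists and was likewise not called at 120 h. The start of Bcl2, which blocks cell death (chr1:106713851-106714645), had widths of 1076, 988, 936, 840 and 795 bases, and that of Sox4, a progenitor transcription factor (chr13:28953607-28954013), had 1243, 943, 737, 515 and 407. All 4 starts were thus called in every list except the one at 120 h. The typical peak also narrowed over these lists, with medians of 839 bases for the list of continuous E2 and 594 for that of 72 h.

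Other progenitor genes had 72h-only regions with a gap in the calls before 72 h, or without one. The start of Bmi1, a Polycomb subunit that sustains self-renewal, had a peak of 642 bases at 72 h, 786 at 56 h, none at 40 h and 1018 and 1088 at 24 and 0 h. Tal1, a stem cell factor, had 767 bases at 72 h and 621 at 56 h at its start, none at 40 h, and 952 and 1368 before. A region inside Lmo2, the partner of Tal1 (chr2:103969590-103970396), was called at 0, 24 and 72 h with 1480, 1249 and 807 bases. Myc, which drives growth and division, had 2 72h-only regions, of which that at its boundary (chr15:61985000-61985604) was 605 bases wide at 72 h and was called in all but the 40 h and 120 h lists. A region inside Runx1 (chr16:92800880-92801918) was 1285, 1261, 1047, 1049 and 1039 bases wide up to 72 h. Cdk6, which links cyclin D to the cell cycle, had 2 72h-only regions inside the gene and Etv6 another 2. Gata2, a stem cell factor, had 1 of 288 bases at a distance of 27545 bases. Each of these regions was called in at least 2 other lists, except 1 region of Etv6 that was in none.

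The 5 120h-only regions of this list were at Meis1, Cd34, Cdk6, Etv6 and Runx1. Continuous E2 had a peak at 4 of the 5, all 4 other lists at 2, and none of them at 1. Cd34 also had a 72h-only region of 390 bases, called in every list except that at 120 h. Meis1 encodes a cofactor of Hoxa9, and its sole region in either list (chr11:18924768-18925230, inside the gene) was 1094, 688, 452 and 388 bases wide at 0 to 56 h, not called at 72 h, and 463 bases wide at 120 h. The 120h-only region inside Runx1 (chr16:92714996-92715997), 1002 bases wide, was in no other list. No region was assigned to Hoxa9.

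Late neutrophil genes were more often on the 120 h side. Of 30 genes, 16 had a region and 8 of those had a 120h-only one (50%, against 8.87% of all genes), while 4 had a 72h-only one (25%, near the 25.7% of all genes). Their 8 120h-only regions were 36.4% of their regions, against 8.50% over all regions, and none of the 8 was called in any other list.

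S100a8 and S100a9 had their 120h-only peaks over the start, 605 bases wide at chr3:90668729-90669333 and 358 bases at chr3:90695643-90696000. Lcn2, a granule protein that binds iron carriers, had a peak of 386 bases 67 bases from its start. Anxa1, an annexin of resolving inflammation, had 419 bases over its start. Anxa1 also had a 72h-only region of 843 bases, 18764 bases from the gene, that was called at 0, 24 and 40 h. Fpr1, a receptor for formylated bacterial peptides, had a peak of 752 bases (chr17:17871283-17872034) 4436 bases from the gene. Itgb2l, an integrin beta chain of neutrophils, had one of 695 bases inside the gene, and Mxd1, an antagonist of Myc, one of 803 bases 7392 bases away. Chil3, a chitinase-like protein, had a 120h-only peak of 493 bases and, nearby, a 72h-only peak of 195 bases. All 8 of these 120h-only peaks were absent from the 5 lists of cells that had E2 at collection, including that at 72 h.

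Phagocyte function genes were also frequent at 120 h. Of 22 genes with a region, 12 had a 120h-only one (54.5%, against 8.87% of all genes) and 7 a 72h-only one (31.8%, near the 25.7% of all genes), and 15 of their 40 regions were 120h-only (37.5%, against 8.50% of all regions). Of the 15, 9 were in no other list and 6 had a peak in continuous E2.

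Alox5, the lipoxygenase of leukotriene synthesis, had 3 120h-only regions inside the gene, of which those at chr6:116417590-116417868 and chr6:116458854-116459303 were in no other list. The remaining region was called at 0, 24 and 40 h with 808, 407 and 473 bases, not at 56 or 72 h, and at 120 h with 218. The 120h-only region of its partner Alox5ap was called in the same lists, with 753, 717, 686 and 670 bases. Alox5ap also had 3 shared regions. Subunits of the NADPH oxidase, which makes superoxide, had 120h-only regions at Ncf1 (1040 bases, chr5:134232202-134233241), Cyba (412 bases) and Ncf4 (978 and 502 bases). The narrower Ncf4 region was called in every list except that at 72 h, and the wider one in no other list. The start of Slc11a1 had 609 bases and the start of Ccr1, a chemokine receptor, 293, both in no other list. Slc11a1 also had a 72h-only region of 386 bases near its end, called in every list except that at 120 h. Tlr2, a sensor of bacterial lipoproteins, had 332 bases near its start at 120 h and 663 in continuous E2.

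The 7 72h-only regions of this list were called in continuous E2 at 5 places and in no other list at 1. Those of Syk, a kinase downstream of activating receptors, and Vav1, an exchange factor for Rac proteins, were called in continuous E2 with 1026 and 1035 bases. Tlr4, the receptor for lipopolysaccharide, had a 72h-only region of 882 bases that was also called at 40 and 56 h, and a 120h-only region of 184 bases in no other list. Rac2, the GTPase of the oxidase, had 1 region of each class, 257 and 537 bases wide, and both overlapped the same peak of 1640 bases in continuous E2.

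**Figure D4:**
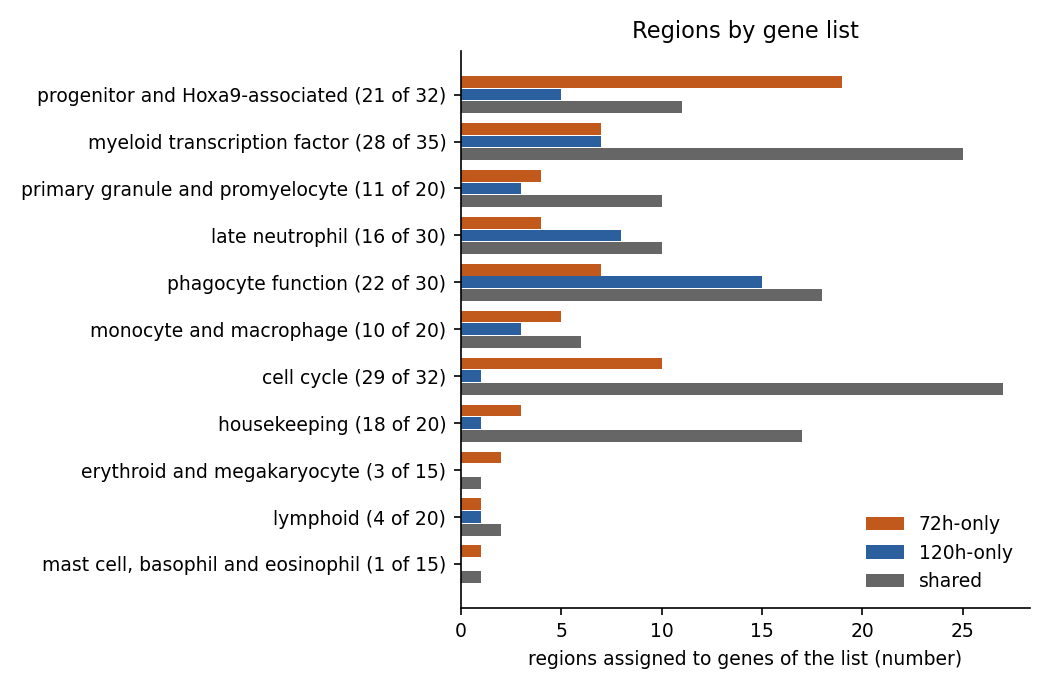
Number of 72h-only, 120h-only and shared regions (horizontal axis) assigned to the genes of each list; the numbers in parentheses are genes with a region of genes listed. Progenitor genes have 19 72h-only and 5 120h-only regions, and phagocyte genes 7 and 15.

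Myeloid transcription factor genes had as many regions of one unmatched class as of the other. Of 28 with a region, 7 had a 72h-only one (25%, near the 25.7% of all genes) and 7 a 120h-only one (also 25%, against 8.87% of all genes), and 25 of the 39 regions were shared. On the 72 h side were the starts of several factors of granulocyte and monocyte fate. The start of Gfi1, a repressor needed for neutrophils (chr5:107725457-107726901), had a peak of 1445 bases at 72 h, and that of Cebpb, a factor of emergency granulopoiesis (chr2:167688422-167689519), one of 1098 bases, and neither was called in any of the other 5 lists. The start of Cebpa, a master factor of granulocytes (chr7:35118858-35119611), was called at 0, 24 and 72 h with 1616, 1325 and 754 bases. The start of Irf8, a factor of monocytes, was called in every list except that at 120 h, with 487 bases at 72 h. On the 120 h side were a peak of 687 bases over an internal start of Egr2, an early response factor (chr10:67537159-67537845), and peaks inside Nr4a1 (241 bases), Rara (240) and Rxra (208), 4 regions in no other list. A further 120h-only peak of 394 bases in no other list held a RefSeq start of Rara, but it was assigned to another gene whose boundary was nearer. Cebpa also had a 120h-only peak of 183 bases, 28988 bases away. Spi1, which encodes PU.1, had 1 shared region, and Cebpe none.

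Primary granule and promyelocyte genes had 4 72h-only regions and 3 120h-only ones over 11 genes with a region (36.4% and 27.3% of genes, against 25.7% and 8.87% of all genes). The 72h-only ones included the starts of Gstm1 (927 bases), Hk3 (570) and Igsf6 (349), and the 120h-only ones that of Ctsc, the activator of granule proteases, which had 1001 bases at 120 h and was called in every list except that at 72 h. No region was assigned to Mpo, Elane or Lyz2, which encode granule enzymes. Csf3r, the G-CSF receptor, had a 120h-only region of 457 bases (chr4:126017690-126018146) in no other list. Monocyte and macrophage genes had 5 72h-only and 3 120h-only regions over 10 genes (50% and 30.0%, against 25.7% and 8.87% of all genes). A region 21166 bases from Ly6c2, a monocyte surface protein, was 1441 bases wide at 72 h and in no other list. The 120h-only regions in no other list included those at Adgre1 (382 bases) and Cx3cr1 (293). Cx3cr1 also had a 72h-only region of 233 bases inside the gene, in no other list.

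Cell cycle genes were near the background on the 72 h side. Of 29 with a region, 8 had a 72h-only one (27.6%, against 25.7%) and 1 a 120h-only one (3.45%, against 8.87%). The start of E2f1 had 1655, 1291, 1154, 1099 and 1120 bases at 0 to 72 h, that of Mki67 1184, 1135, 1006, 769 and 856, and that of Cdk2, a kinase of S phase, 957, 1060, 985, 808 and 774. None of the 3 was called at 120 h. The start of Plk1, a mitotic kinase, was called at 0, 24, 40 and 72 h, with 510 bases at 72 h. Aurkb and Ccnd2 had 2 72h-only regions each, none of them called in continuous E2. Both regions of Ccnd2 were also called at 56 h, and 1 of Aurkb, 838 bases wide, in no other list. Continuous E2 had a peak at 6 of the 10 72h-only regions of this list. The sole 120h-only region was inside Ccnd3, which encodes cyclin D3, with 408 bases.

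Housekeeping genes show that a start can drop out of either list. Of 18 with a region, 3 had a 72h-only one (16.7%, against 25.7% of all genes) and 1 a 120h-only one (5.56%, against 8.87%). The start of Eef1a1, a translation factor, had 1017 bases at 72 h, and that of Hprt, a purine salvage enzyme, 524, and both were called in every list except that at 120 h. The start of Polr2a, the large subunit of RNA polymerase II, had 1025 bases at 56 h and 1013 at 120 h and was called in every list except that at 72 h. Missed calls at such starts and their part in the 2 classes were not tested.

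Markers of other blood cells were rarely near a region. Of 15 erythroid and megakaryocyte genes 3 had one, and 72h-only regions were at Klf1, an erythroid factor (462 bases), and Itga2b, a platelet integrin (400). Of 20 lymphoid genes 4 had one, with a 72h-only region inside Pax5 and a 120h-only region near Ms4a1, and of 15 mast cell, basophil and eosinophil genes 1 had one, Ccr3. Their part in the other results was not tested.

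Over all genes, the highest number of 72h-only regions at a gene was 3, reached by Dusp6, Zfp516, Ksr1 and Cdkl3, and the highest number of 120h-only regions was 3, at Alox5, Pid1, Atrnl1 and Ppp2r5c. Dusp6, a phosphatase that shuts off ERK, had regions of 687, 222 and 273 bases within 2913 bases of the gene. The first of them overlapped a peak of 2454 bases in continuous E2 and 2297 at 24 h. The shared region over the start of Dusp6 overlapped the same peaks. Ksr1, a scaffold of the ERK pathway, had 3 72h-only regions and 1 120h-only region. Of the 3 regions of Zfp516, 2 overlapped the same peak of 1805 bases in continuous E2. The 3 regions of Pid1, whose product binds lipoprotein receptors, were 300, 535 and 380 bases wide and in no other list. Those of Ppp2r5c, a regulatory subunit of phosphatase 2A, were all called in continuous E2.

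The widest 72h-only regions were at Nr3c1, the glucocorticoid receptor gene (2589 bases, also called at 40 h), and at the starts of Anp32b (1673), Rcc2 (1652) and Ube2g1 (1576) and the boundary of Foxn2 (1641). Those of Foxn2 and Ube2g1 were called in every list except that at 120 h. The widest 120h-only region (chr17:39843103-39846358, 3256 bases) had no protein-coding gene within 50000 bases, was called at 0 and 24 h with 3515 and 3528 bases, and lies next to the rRNA-related entry Rn18s-rs5 of the gene table. The next were at the starts of Ddx5 (1772, in no other list), Hcfc1 (1730) and Tpd52l2 (1718) and the boundary of Kmt2e (1703), all but the first also called in continuous E2.

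On the X chromosome 34.3% of the 251 regions were 72h-only (28.7 to 40.3), against 23.4% of autosomal regions, a difference of 10.8 points (5.19 to 17). The difference was at gene boundaries, where the shares were 40.6% and 19.3%. Away from boundaries they were 24.0% and 30.8%. Of the 86 72h-only regions of the X chromosome, 80.2% had a peak in continuous E2, against 72.8% on autosomes.

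Promoters were compared with the RefSeq promoter table, which gives 250 bases before and 50 after the start, and 1 promoter was taken for each region that held a start. The median number of CpG in the 300 bases was 21 for 1163 72h-only promoters, 24 for 4656 shared promoters and 7 for all 32851 promoters of the table. All 196 120h-only promoters together had a median of 23 (21 to 25). The 162 of them also called before 72 h had a median of 25. The 34 in no other list had 4.5, and 73.5% of them held at most 10 CpG (56.9 to 85.4), against 11.1% of the 162 (a difference of 62.4 points, 44.8 to 74.9) and 58.6% of the whole table. The split and the limit of 10 CpG were chosen after the values were seen. Besides S100a8, S100a9, Slc11a1, Anxa1 and Ccr1, the 34 included the starts of Stfa1 and Stfa2l1, stefins of neutrophils, and Il1rn, the antagonist of interleukin 1. Nlrp3, an inflammasome sensor, and Clec4a1 and Cd300lf, receptors of myeloid cells, were also among them. These names were picked as genes of myeloid cells or inflammation. The 34 also held the starts of Ddx5 (34 CpG), Mettl6 (32), Erf (32), Foxo1 (31), Prpf19 (16), H2bc6 (7) and Slc25a45 (7). At most 10 CpG were held by 11.0% of 72h-only and 5.58% of shared promoters, 5.42 points apart (3.61 to 7.45). The 42 72h-only promoters in no other list had a median of 22 CpG, and 21.4% of them held at most 10 (11.7 to 35.9).

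**Figure D5:**
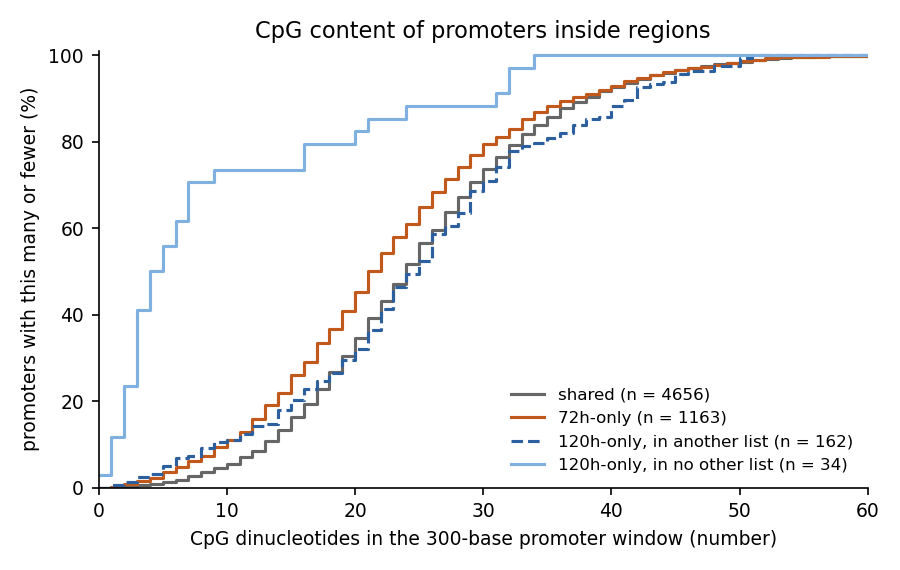
Cumulative percent of promoters (vertical axis) by number of CpG dinucleotides in the 300-base window (horizontal axis), for promoters inside shared, 72h-only and the 2 sets of 120h-only regions. The line for 120h-only regions in no other list reaches 73.5% by 10 CpG, against 11.1% for those in another list.

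Short motifs were counted on both strands of the same windows. The GAGGAAG motif of PU.1-type ETS factors was in 32.4% of the 34 promoters (19.1 to 49.2), against 13.6% of all promoters, 13.2% of 72h-only and 13% of shared ones. Among promoters with at most 10 CpG it was in 40.0% of the 25 members and 14.5% of the table. It stands as cttcctc in the S100a8 stretch above. The CpG-holding GCGCNTGC motif of NRF1 was in 16.7% of 72h-only and 26.9% of shared promoters, against 9.61% of the table and in none of the 34 (upper limit 10.2%). Only 1.49% of the promoters of the table with at most 10 CpG held it, and none of the 25 members (upper limit 13.3%). The CCAAT motif of NFY was in 34.7% of 72h-only and 45.0% of shared promoters, against 37.4% of the table. The GGGCGG motif of SP and KLF factors was in 72.7% and 74.4%, and in 38.2% of the 34, against 35.7% of the table. With at most 10 CpG, 28.0% of the 25 members and 10.3% of the table held GGGCGG. The TGACAG motif of MEIS factors was in 32.4% of the 34 (19.1 to 49.2), against 19.2% of the table. With at most 10 CpG, 36.0% of the 25 members and 22.2% of the table held TGACAG. The PBX-HOX motif TGATNNAT went the other way, in 2.94% of the 34 (0.521 to 14.9) against 8.85% of the table. For both motifs the interval of the 34 holds the share of the table. The TTGCNNCAA motif of C/EBP factors was in none of the 34 (upper limit 10.2%), against 2.08% of the table. Of 12 motifs searched these are given here, with AP-1 and another C/EBP share further below. Matches of different motifs may overlap, and a match describes the letters and not binding.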

How the data were processed

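ATAC-seq libraries of 12 samples in 6 groups are represented by 1 deposited peak list per group, and the 2 lists compared stand for 4 libraries. Per the file headers and columns, the authors deposited the chromosome, start and end of each peak, with no score, count or other measured value. The submitters' processing notes name BWA, MACS2 2.0 and STAR 2.5 with no role and the build mm9. How the 2 libraries of a group were joined is not given in the sources used here. Of the 72 h and 120 h peaks, 63.3% and 62.9% lay within 1000 bases of a RefSeq start on GRCm38, against 4.21% and 4.34% after a shift of 1000000 bases, so GRCm38 was used. Starts were read as counted from 0 and are printed from 1.

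Exact duplicate rows (173 and 115) and intervals over 10000 bases (1 in each list) were dropped, and overlapping rows were merged. All duplicates lay on chromosomes 18 and 19. Regions were classed by overlap of 1 base, and the other 4 lists were cleaned alike. Shares have 95% Wilson intervals, differences Newcombe intervals and medians order-statistic intervals, which cover counting error over regions. The depth of each library was unknown, and with 1 list per group there is no test between samples and no p-value.

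Gene starts and ends came from the RefSeq gene table, without strand, and strand and promoters from the RefSeq promoter table, which held a start for 17492 of 21900 protein-coding genes. Of 269 listed genes in 11 lists, all but 2 were in the gene table. Members, lists and motifs were chosen with earlier results of these data known. Named were the 10 genes with the most regions and the 5 widest regions of each class, 5 genes with both classes, up to 4 genes per list and class, and 11 fixed genes; other list members named were chosen after their values were seen. Alternatives covered the overlap rule, list length, width, chromosomes, the boundary window and the assignment distance. Merging, overlap, classes, assignment and intervals were tested on simulated data. The work used Python 3.11.15 with pandas 2.3.3, numpy 2.4.6 and scipy 1.17.1, and matplotlib 3.10.9 for the figures.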

Additional observations from a re-analysis of the deposited data

How the results depend on the processing

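The order of the classes held under every alternative run: the boundary share was highest in shared and lowest in 120h-only regions, and continuous E2 called more 72h-only than 120h-only regions. Leaving out chromosomes 18 and 19 moved none of the 7 shares beyond its interval. Counting peaks within 200 bases as shared could not change a class, since the smallest gap between the lists was 260 bases, and so says nothing of stability. With 50% reciprocal overlap, 12.0% of 120 h peaks had no partner, and continuous E2 called 55.2% of 72h-only and 30.7% of 120h-only regions, under the same stricter rule. With equal list lengths, the share without a partner was 21.5% in the 72 h list and 21.5% in the 120 h list, continuous E2 called 78.8% of 72h-only and 51.5% of 120h-only regions, and 61.2% of 72h-only and 77.9% of shared regions were at a boundary. With each list first reduced to peaks at or above its median width, which can remove the partner of a wide peak, 30.8% of 72 h and 17.1% of 120 h peaks had no partner, continuous E2 called 84.8% of 72h-only and 77.8% of 120h-only regions, and the boundary shares were 73.3% for 72h-only, 65.5% for 120h-only and 83.2% for shared regions. With classes from the whole lists and then only members at or above the median width, an alternative chosen after seeing the data, 17.6% of 72 h and 6.23% of 120 h peaks had no partner, continuous E2 called 80.5% and 64.0%, and the boundary shares were 66.2%, 56.4% and 83.1%. A boundary window of 500 bases gave 50.4% of 72h-only and 70.4% of shared regions, one of 2500 bases 58.5%, 34.1% and 76.6% for 72h-only, 120h-only and shared, and gene starts alone 50.9% of 72h-only and 67.6% of shared regions. With assignment within 20000 bases the progenitor genes had 3 120h-only regions in place of 5, and the other 21 gene list counts stayed within 1.5 times, as did all 22 within 100000 bases. The cause of these shifts was not tested. No paired analysis was possible because the 2 libraries of a group share a single list, and for the same reason no replicate could be left out. Without read depth or peak scores, a region missing from a list cannot be told from one that was open but below the caller's threshold.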

Other observations

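Of the 659 regions called at 120 h and in none of the 4 lists from continuous E2 to 56 h, 201 (30.5%, 95% Wilson interval 27.1 to 34.1) were also called at 72 h, although those cells had E2 back for 48 h. Among the named genes they included the starts of Cd68, a lysosomal protein of macrophages (202 bases at 72 h and 242 at 120 h), Ms4a3, a surface protein of granulocyte and monocyte progenitors (464 and 202), and Ly6c2 (516 and 200). An internal start of Csf3r had 358 and 438 bases, a region near Tlr2 437 and 481, and a region near Fcnb, a ficolin, 463 and 514. Ms4a3 and Ly6c2 were wider at 72 h and the other 4 at 120 h. The median width of the 201 regions was 320 bases at 72 h (298 to 343) and 400 at 120 h (370 to 425), the reverse of the shared regions called elsewhere, with 625 and 600. Of 22 promoters in the 201 regions, 54.5% held at most 10 CpG (34.7 to 73.1), and GAGGAAG was in 31.8% of the 22. TTGCNNCAA was in 3 of the 22 (13.6%, 4.75 to 33.3), against 2.08% of all promoters.

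The AP-1 motif TGANTCA was in 16.7% of the 42 promoters of 72h-only regions in no other list (8.32 to 30.6), against 3.84% of the other 72h-only promoters and 7.81% of all promoters. These values were picked after the data were seen.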
